A study of Mus musculus with 2 samples.

Results

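The granin family is the set of acidic proteins that fill the dense-core granules of endocrine cells. The members were chosen by name: Chga, Chgb, Scg2, Scg3, Scg5, Vgf and Resp18, and all 7 were found among the 32285 genes of both count tables. The study took pancreatic islets from 12-week-old female C57BL/6 mice and sequenced single cells in 2 libraries, 1 from Spop fl/fl mice, which carry the floxed allele without a stated Cre, and 1 from SpopβKO mice, in which Spop is deleted in beta cells. SPOP brings substrates to a ubiquitin ligase built on CUL3. Islets recovered for 3 days in medium with 10 mM glucose before they were dispersed. The labels give neither the Cre driver, nor the deleted exons, nor how many mice were pooled for a library. With 1 library per genotype there is no replicate, no test was made, and each 95% interval covers counting error only.

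Granins are sorted in the trans-Golgi network, where they aggregate with prohormones in an acidic, calcium-rich lumen and help to form the granule core. Several are themselves cut by prohormone convertases into peptides that are released with the hormone. In islets they are made by all hormone-producing cell types, and chromogranin A is a widely used marker of neuroendocrine cells.

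The members have different roles. Chga encodes chromogranin A, the precursor of pancreastatin, and Chgb encodes chromogranin B, and both take part in granule formation. Scg2 encodes secretogranin II, the precursor of secretoneurin, and Scg3 encodes secretogranin III, which binds cholesterol-rich granule membrane and chromogranin A. Scg5 encodes the chaperone of the convertase made from Pcsk2, Vgf encodes a precursor of several neuroendocrine peptides, and Resp18 encodes a granule protein related to the luminal part of Ptprn.

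On mm10, Chga (ENSMUSG00000021194) lies on chromosome 12 from 102554969 to 102565028 on the plus strand. Chgb (ENSMUSG00000027350) lies on chromosome 2 from 132781278 to 132795079 on the plus strand, and Scg5 (ENSMUSG00000023236) on the same chromosome from 113776362 to 113829121 on the minus strand. Resp18 (ENSMUSG00000033061) and Scg2 (ENSMUSG00000050711) lie on chromosome 1, from 75272199 to 75278415 and from 79434669 to 79440120, both on the minus strand. Scg3 (ENSMUSG00000032181) lies on chromosome 9 from 75643189 to 75684056 on the minus strand, and Vgf (ENSMUSG00000037428) on chromosome 5 from 137026392 to 137033351 on the plus strand. All are protein-coding. An antisense gene, Gm28902, overlaps Resp18 and is counted in the tables, and whether strand was used in counting is not given in the sources used here.

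The cAMP response element is a known control site of chromogranin promoters, and the bases around it are shown to let its copies in the family be compared. Promoter sequences of 6 members were found in the RefSeq table (GRCm38.p6), and Vgf was not matched. In the 250 bases before the start site, the palindrome TGACGTCA was present in 2 of the 6, Chgb and Scg2, against 1.55% of all 32851 promoters in the table. Its core TGACG, searched on both strands and contained in the palindrome, was present in 5 of the 6 against 17.8% of all promoters. Each run below has 30 bases, 5′ to 3′ on the strand of the gene, with the match in capitals. They lie at chr12:102554885-102554914 (Chga, plus), chr2:132781559-132781588 (Chgb, plus), chr1:79440076-79440105 (Scg2, minus), chr9:75684069-75684098 (Scg3, minus) and chr2:113829249-113829278 (Scg5, minus).
Chga: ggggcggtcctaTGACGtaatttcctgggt
Chgb: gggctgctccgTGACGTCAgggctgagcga
Scg2: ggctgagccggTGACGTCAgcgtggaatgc
Scg3: gcgctgggtcgcTGACGccatcctcacgcc
Scg5: aaaggaggtaaaTGACGttcataggggtcg
The match began 72 bases before the RefSeq start site in Chgb, 68 in Scg2, 44 in Chga, 30 in Scg3 and 175 in Scg5. RefSeq places the starts of Chgb and Scg2 farther downstream than the gene bounds given above, so the windows of these genes lie inside those bounds. The letters TGACG were not in this window of Resp18.

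The tables held 82541585 and 89977773 UMIs (unique molecular identifiers, 1 per captured RNA molecule), and 6850 control and 8842 knockout-labelled barcodes were kept, with medians of 8870 and 7638.5 UMIs. Cells were classed by their leading hormone, the one with the most UMIs among insulin (Ins1 and Ins2), Gcg, Sst and Ppy, at 1% of UMIs or more and at least 2 times the next. This gave 3876 control and 7052 knockout-labelled insulin-led cells, 1745 and 1024 glucagon-led and 115 and 106 Ppy-led cells. Only 7 and 8 barcodes were somatostatin-led, so a gate of 0.1% Sst with the other hormones under 1% was added, which held 52 and 32. The median gated cell held 0.473% and 0.487% delta-cell marker UMIs but 0.667% and 1.23% beta-cell marker UMIs, so this group is called by its gate and not as a cell type. The leading share lay between 0.8% and 1.25% in 361 and 215 cells. The median cell held 8.65% and 10.99% beta-cell marker UMIs among insulin-led cells but 0.380% and 1.19% among glucagon-led cells, and alpha-cell markers made up 9.65% and 9.92% of the median glucagon-led cell. Spop, the deleted gene, stood at 63.4 CPM (counts-per-million) in control and 79.5 in knockout-labelled insulin-led cells, a log2 ratio of 0.33 (0.26 to 0.39), and a 3′ tag outside the deleted exons would not read the deletion. The second library is therefore called the library labelled knockout. The libraries shared 14 barcodes among the kept cells, and doublets were not removed. The knockout-labelled insulin-led cells also stood apart by cluster: 2 clusters that held 2210 of them (31.3%) held 25 of the control cells (0.645%).

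Across the hormone classes, granin RNA was abundant in every one and its makeup differed. Levels between classes are hormone-free CPM, with the 7 hormone genes Ins1, Ins2, Gcg, Sst, Ppy, Pyy and Iapp left out of the total, because hormone RNA took between 3.47% and 19.96% of a class. A 3′ tag is counted per molecule, so levels of different genes were not divided by length. In the control library the 7 members together gave 6561 CPM on this scale in insulin-led, 5927 in glucagon-led, 6102 in Ppy-led and 4162 in somatostatin-gated cells. The same sums in knockout-labelled cells were 13874, 7460, 7587 and 7137. The 7 control and 8 knockout-labelled somatostatin-led cells, which are also part of the gate, gave 8104 and 16072 when taken alone. These sums rest on 616 and 907 granin UMIs. Chga was the leading member of insulin-led cells in both libraries, with 37.3% and 43.4% of their granin UMIs. Glucagon-led control cells were led by Resp18 with 26.6%, Ppy-led control cells by Scg2 with 22.1% and somatostatin-gated control cells by Scg2 with 27.9%. Other members led these classes in the library labelled knockout. There Chga led glucagon-led cells with 28.9% and Ppy-led cells with 23.7%, and Chgb led somatostatin-gated cells with 33.7%.

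**Figure D1:**
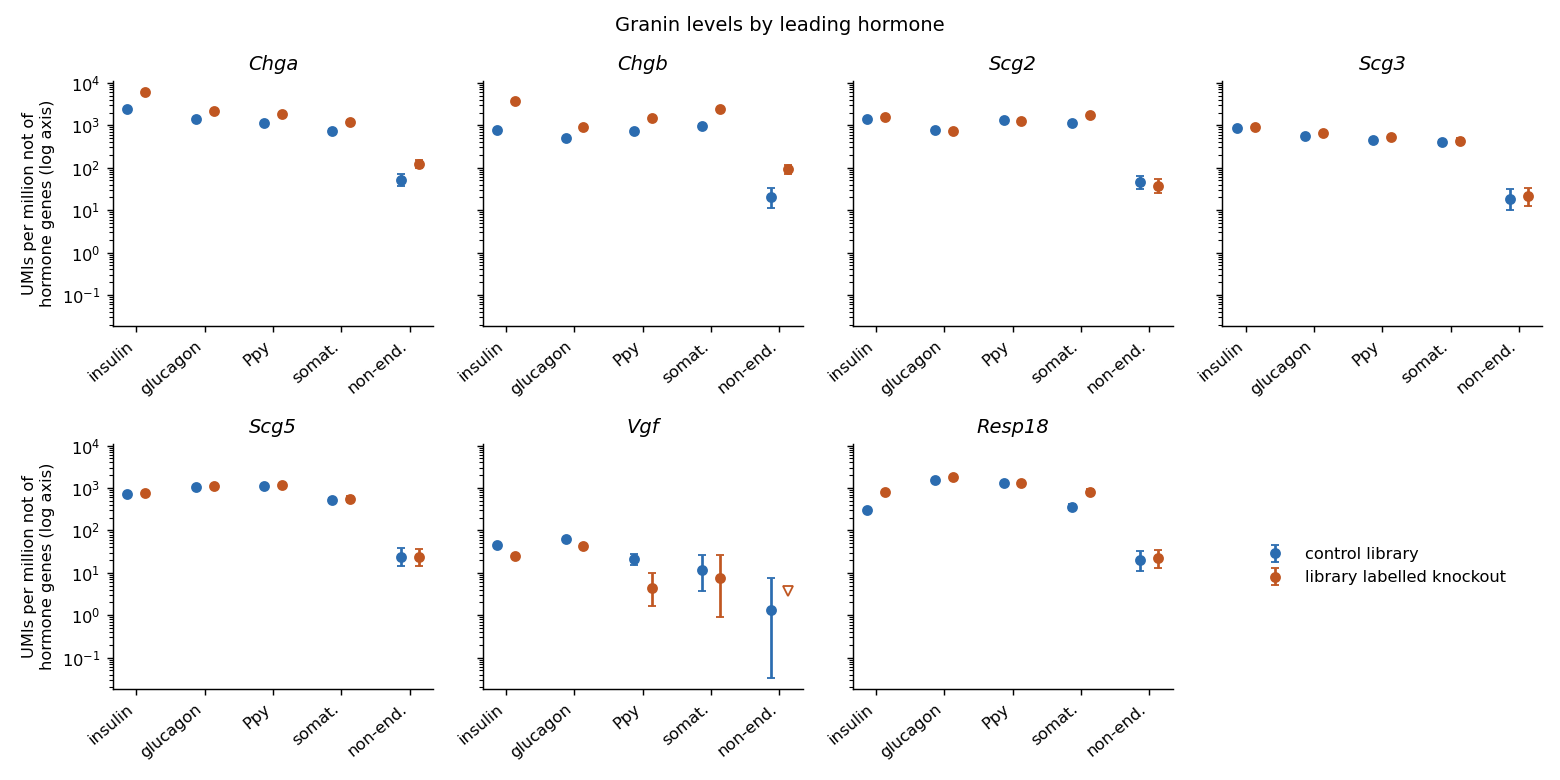
Level of each granin (hormone-free CPM, log axis) in insulin-led, glucagon-led, Ppy-led, somatostatin-gated and non-endocrine cells of the control library (blue) and the library labelled knockout (orange), with exact 95% Poisson intervals; the open triangle marks the limit that a count of 0 allows. Among the classes shown, Chga is highest in insulin-led and Resp18 in glucagon-led cells. Non-endocrine cells, shown without those that had a leading hormone, lie far below every endocrine class for all members but Vgf, whose intervals overlap there.

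The chromogranins had the clearest order by class. Chga stood at 2448 hormone-free CPM (2433 to 2464) in insulin-led control cells, 1380 in glucagon-led, 1158 in Ppy-led and 741 in somatostatin-gated cells, and no 2 of these intervals overlapped. The library labelled knockout kept this order, at 6016, 2157, 1801 and 1227. Chgb was ordered otherwise in the control library, at 976 (885 to 1073) in somatostatin-gated cells, 765 in insulin-led, 735 in Ppy-led and 502 in glucagon-led cells, where the insulin-led and Ppy-led intervals overlapped. Among the same groups, insulin-led cells of the library labelled knockout came first for Chgb, at 3805 (3789 to 3822). Somatostatin-gated, Ppy-led and glucagon-led cells followed at 2402, 1491 and 888. The few somatostatin-led cells alone, 7 in control and 8 in the other library, had higher Chgb levels. They stood at 1513 (1249 to 1816) and 6432.5 (5788 to 7130).

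The secretogranins Scg2 and Scg3 favoured insulin-led over glucagon-led cells. Scg2 stood at 1414 in insulin-led, 1349 in Ppy-led, 1160 in somatostatin-gated and 787 in glucagon-led control cells. Scg2 in knockout-labelled cells stood at 1711 (1558 to 1874) in somatostatin-gated and 1591 (1581 to 1602) in insulin-led cells, which overlapped. In Ppy-led and glucagon-led cells it stood at 1241 and 724. The 7 control and 8 knockout-labelled somatostatin-led cells alone had higher Scg2 levels, at 2342 and 2818. Scg3 went from 847 in insulin-led to 574 in glucagon-led, 443 in Ppy-led and 397 in somatostatin-gated control cells, the last 2 overlapping, and the library labelled knockout had 888, 667, 528 and 428 in the same order, again with the last 2 overlapping.

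Scg5, Vgf and Resp18 were higher in glucagon-led than in insulin-led cells. Scg5 stood at 1108 in Ppy-led, 1048 in glucagon-led, 738 in insulin-led and 524 in somatostatin-gated control cells, and at 1192, 1121, 751 and 550 in the library labelled knockout. There the Ppy-led and glucagon-led intervals overlapped. Vgf was the least abundant member, at 63.3 in glucagon-led, 45.6 in insulin-led, 21.2 in Ppy-led and 11.54 in somatostatin-gated control cells, the last 2 overlapping. In the library labelled knockout Vgf stood at 43.1 in glucagon-led and 24.8 in insulin-led cells, and it rested on 6 UMIs in Ppy-led and 2 in somatostatin-gated cells. Resp18 stood at 1574 in glucagon-led, 1289 in Ppy-led, 353 in somatostatin-gated and 303 in insulin-led control cells, with the last 2 overlapping. In the library labelled knockout it stood at 1861, 1330, 811 and 797 in the same order, where the last 2 overlapped as well. In somatostatin-led cells alone Resp18 stood at 1013 in the 7 control cells and at 2818 (2397 to 3291) in the 8 of the other library.

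A member was called higher or lower where 2 sums differed by at least 1.5-fold and the exact 95% interval of the ratio excluded no difference. In the control library 3 of 7 members were called higher in insulin-led than in glucagon-led cells, where 13.7% of the 8897 genes at a mean of 10 hormone-free CPM or more were. These were Scg2 at a log2 ratio of 0.85 (0.82 to 0.87), Chga at 0.83 (0.81 to 0.85) and Chgb at 0.61 (0.57 to 0.65). Scg3 stood just short at 0.56. Resp18 was the 1 member called lower, at −2.38 (−2.41 to −2.35), which is 5.19-fold, against 8.86% of genes called lower. Scg5 at −0.50 and Vgf at −0.47 did not reach the fold. The median log2 ratio was 0.56 over the members and 0.13 over all genes.

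In the library labelled knockout the same 3 members were called higher in insulin-led cells, against 14.0% of genes, at larger ratios: Chgb at 2.10 (2.06 to 2.14), Chga at 1.48 and Scg2 at 1.14. Resp18 at −1.22 (−1.25 to −1.19) and Vgf at −0.80 (−0.98 to −0.62) were called lower, against 5.79% of genes. The Chgb call of the control library was lost with CPM over all UMIs, at 0.53, and Scg3 passed the fold at 0.81 in control cells with a leading hormone of at least 5%.

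Against Ppy-led and somatostatin-gated cells other members differed. In the control library 3 members were called higher in insulin-led cells (15.5% of genes were), Vgf at 1.11, Chga at 1.08 and Scg3 at 0.94, and 2 were called lower (9.16% of genes), Resp18 at −2.09 and Scg5 at −0.59. Between glucagon-led and Ppy-led control cells Vgf was higher at 1.58 (7.71% of genes) and Scg2 lower at −0.78 (6.99% of genes). Against somatostatin-gated control cells 3 members were higher in insulin-led cells (8.92% of genes), Vgf at 1.98, Chga at 1.73 and Scg3 at 1.09, and 0 were lower (8.96% of genes), though Vgf rested there on 5 UMIs.

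The second library repeated most of these calls. Against Ppy-led cells 4 members were called higher in its insulin-led cells (14.0% of genes), Vgf at 2.46, Chga at 1.74, Chgb at 1.35 and Scg3 at 0.75, and Resp18 at −0.74 and Scg5 at −0.67 were lower (6.12% of genes). Against somatostatin-gated cells Chga at 2.29, Scg3 at 1.05 and Chgb at 0.66 were higher (7.62% of genes) and 0 members were lower (6.55% of genes). Between its glucagon-led and Ppy-led cells Vgf was higher at 3.26 (4.28% of genes), on 6 UMIs in Ppy-led cells, and Scg2 at −0.78 and Chgb at −0.75 were lower (4.85% of genes). Chgb was the member added to the calls in all 3 of these comparisons.

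Free RNA under these levels was read from non-endocrine cells, and the choice of cells changed it. Cells with non-endocrine markers and no leading hormone, 57 of the control and 58 of the other library, with medians of 11118 and 11872 UMIs, held 181 and 319 hormone-free CPM of all 7 members. Each granin level there was at most 6.64% of its level in insulin-led control cells and at most 3.14% in insulin-led cells of the library labelled knockout. Against glucagon-led cells the largest share was that of Chgb in the library labelled knockout, at 10.3%. Chgb stood at 20.1 hormone-free CPM in control and 91.7 in knockout-labelled non-endocrine cells, and Chga at 51.0 and 123. Knockout-labelled non-endocrine cells had 26.1 Chga and 19.5 Chgb UMIs per 1000 insulin UMIs, against 27.8 and 17.6 in insulin-led cells. In the control library these values were 26.4 and 10.4 against 14.8 and 4.62. Cells that also held a leading hormone were left out of this group. Over all 62 and 104 cells with non-endocrine markers, the 7 members held 303 and 796 hormone-free CPM, and Chgb held 24.2 and 204.

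At equal depth a Chga UMI was seen in nearly every insulin-led cell and a Chgb UMI in fewer. With 3000 UMIs drawn from each of 3023 control and 5039 knockout-labelled insulin-led cells (853 and 2013 were too shallow), at least 1 Chga UMI was seen in 92.3% and 98.9% and at least 1 Chgb UMI in 76.2% and 96.2%. Without thinning these shares were 93.3% and 96.9% for Chga and 83.5% and 95.04% for Chgb. Scg2 was seen in 90.7% and 93.4% of thinned cells, Scg3 in 85.0% and 85.5%, Scg5 in 82.2% and 80.7%, Resp18 in 39.4% and 71.9% and Vgf in 7.84% and 5.36%. The unthinned shares were 91.2% and 89.0% for Scg2, 89.0% and 84.9% for Scg3, 84.5% and 81.5% for Scg5, 59.6% and 74.0% for Resp18 and 23.0% and 14.5% for Vgf. Resp18 and Chgb had the largest gaps between the libraries. Non-endocrine cells at the same depth showed a Chga UMI in 13.5% and 32.8% of cells, a Chgb UMI in 7.69% and 31.0% and a Resp18 UMI in 5.77% and 6.90%, against 35.1% and 82.8%, 12.3% and 75.9%, and 17.5% and 27.6% without thinning (5 and 0 cells were too shallow).

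The range of counts between cells was wider for Chga than for Scg2, and it was not scaled by the mean. Chga had a median of 5 UMIs per 3000 in control insulin-led cells, with 1 at the 10th and 15 at the 90th percentile, and a median of 11 with 3 and 30 in the library labelled knockout. Chgb had a median of 2 (0 and 5 at the same percentiles) and of 7 (1 and 20). Its median in the library labelled knockout thus lay above the 90th percentile of the control cells. Scg2 had a median of 3 in both libraries, with 1 and 7 at these percentiles in each. Scg3 had a median of 2 in both, with 0 and 5 in each, the values of Chgb in control cells.

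**Figure D2:**
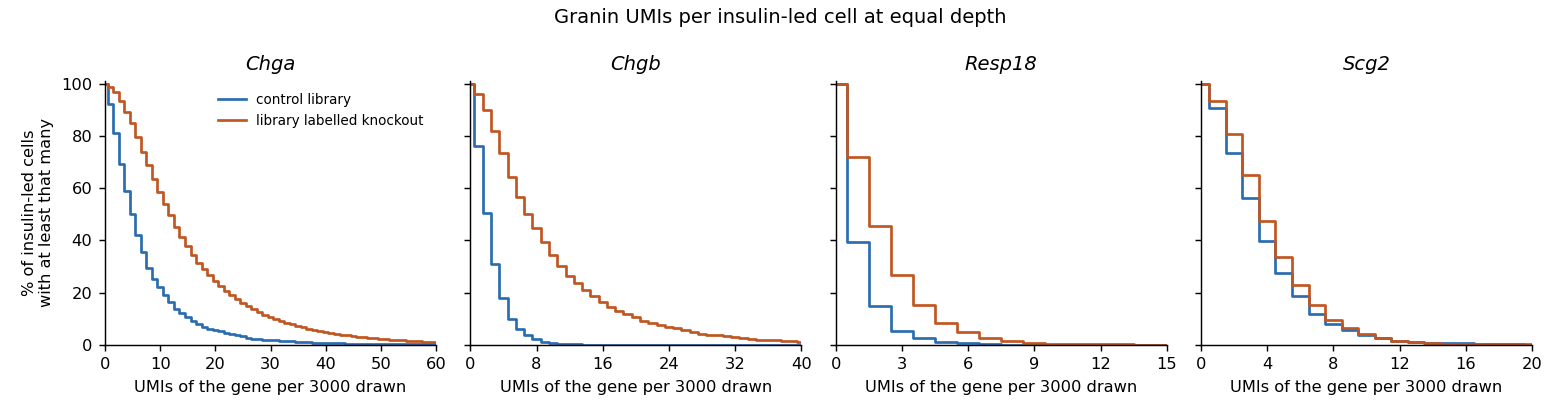
Share of insulin-led cells (percent) with at least a given number of UMIs of Chga, Chgb, Resp18 or Scg2 among 3000 drawn from each cell, in the control library (blue, 3023 cells) and the library labelled knockout (orange, 5039 cells). The curves of Chgb lie far apart, with medians of 2 and 7, and those of Scg2 nearly coincide, with a median of 3 in both.

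Within insulin-led cells, the summed granin RNA was higher where insulin RNA took a larger share of the cell. Cells were put in 5 bins of equal size by insulin share, counted over both libraries, with limits at 3.43%, 6.45%, 11.8% and 23.3% of UMIs. The level of all 7 members went from 4520 hormone-free CPM in bin 1 through 5113, 5931 and 7060 to 13391 in bin 5 of the control library. Knockout-labelled cells went from 7584 through 9800, 11780 and 14560 to 23155. In both libraries the step into bin 5 was the largest.

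**Figure D3:**
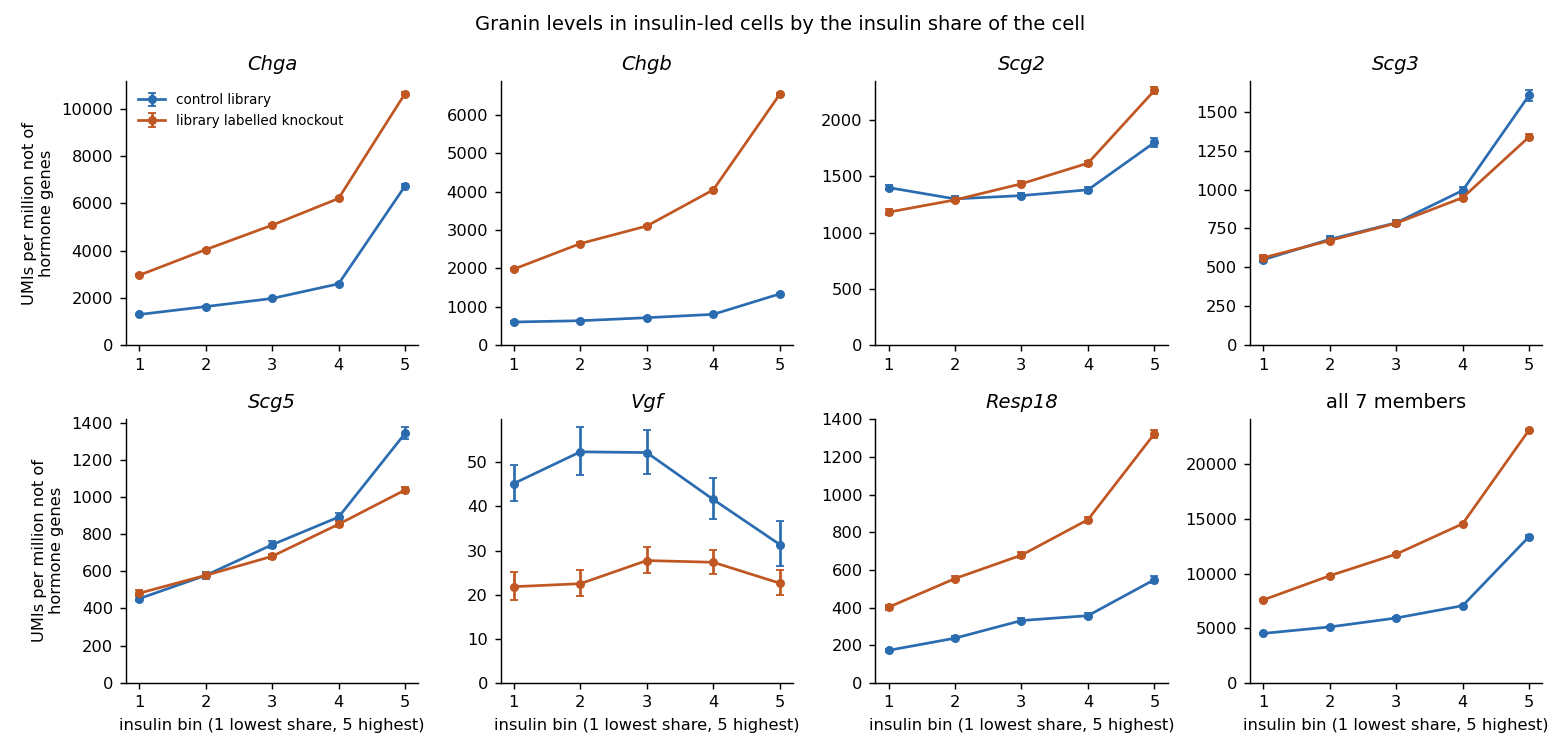
Level of each granin and of all 7 members (hormone-free CPM) in 5 bins of insulin-led cells by insulin share, from bin 1 (lowest) to bin 5 (highest), in the control library (blue) and the library labelled knockout (orange), with exact 95% Poisson intervals. Chga goes from 1296 to 6725 in the control library and from 2953 to 10634 in the library labelled knockout, while Vgf stays between 21.8 and 52.4 in all bins.

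Comparing bin 5 with bin 1, 5 of 7 members were called higher in the control library, where 6.74% of genes were, and 0 lower, where 22.6% of genes were. Chga went from 1296 through 1629, 1974 and 2591 to 6725, a log2 ratio of 2.38 (2.35 to 2.40), or 5.19-fold. Resp18 had a ratio of 1.67 (1.58 to 1.76), from 173 to 549. Scg5 went from 453 to 1342 (1.57) and Scg3 from 549 to 1606 (1.55). Chgb had the smallest called ratio, 1.15 (1.10 to 1.20), from 603 through 636, 714 and 802 to 1335. Scg2, at 0.36, had its lowest level in bin 2, and Vgf, at −0.53, had its highest in bin 2. The median was 1.55 over the members and −0.21 over all genes.

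In the library labelled knockout 6 of 7 members were called higher in bin 5 than in bin 1, against 9.05% of genes, and 0 lower, against 9.58%. Chga had a log2 ratio of 1.85 (1.83 to 1.87), and Chgb had 1.72 (1.70 to 1.75), going from 1981 through 2645, 3103 and 4045 to 6533. Resp18 had 1.72, Scg3 1.25, Scg5 1.11 and Scg2 0.94, from 1183 to 2265. Vgf stood at 21.8 and 22.6, a ratio of 0.05 (−0.23 to 0.33).

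The larger part of each called ratio lay between bins 3 and 5, except for Resp18 in the control library. From bin 1 to bin 3 of the control library 3 members were called higher, Resp18 at 0.94, Scg5 at 0.71 and Chga at 0.61 (1.43% of genes), and 0 lower (2.37% of genes). From bin 3 to bin 5 the 5 members Chga at 1.77, Scg3 at 1.03, Chgb at 0.90, Scg5 at 0.85 and Resp18 at 0.73 were higher (3.54% of genes), and Vgf was lower at −0.74 (11.2% of genes). In knockout-labelled cells Chga at 0.78, Resp18 at 0.76 and Chgb at 0.65 were higher from bin 1 to bin 3 (1.03% of genes), with 0 lower (0.950% of genes). From bin 3 to bin 5 of these cells 6 members were higher, all but Vgf, at 0.61 to 1.07 (5.15% of genes), and 0 lower (4.01% of genes).

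The scale and the cells bear on these ratios. With CPM over all UMIs, 4 members were called higher in the control library (0.868% of genes), without Chgb (0.40), and 3 among knockout-labelled cells (1.64% of genes), Chga at 1.16, Chgb at 1.04 and Resp18 at 1.04. On that scale Vgf was called lower in both libraries, at −1.28 (77.3% of genes) and −0.63 (67.1% of genes), and Scg2 had −0.39 in the control library. The medians over all genes were then −0.96 and −0.76. The bins also differed in depth and quality: the control median was 4676 UMIs in bin 1 and between 8856 and 10175 in the others, and the knockout-labelled median was 2081 in bin 2 and 11690 in bin 5. Median mitochondrial shares went from 2.18% in bin 1 to 0.800% in bin 5 of the control library and lay between 1.53% and 1.995% in the other. Bin 5 control cells had a median of 1977.5 detected genes against 3231 in bin 4. Markers of other cells moved with the bins as well. Of the measured alpha-cell markers 3 of 5 were called higher in bin 5 in both libraries (medians 1.11 and 0.86), with Gcg at 2.04 and 1.57. Of the pancreatic polypeptide cell markers 2 of 3 were higher in the control library (Ppy at 1.94), and 2 of 4 were higher and 1 lower in the other. Of the leukocyte markers 2 of 2 were higher in the control library (C1qa at 3.89), and 1 of 7 was higher and 6 lower in the other. The part of depth, quality and these markers in the result was not tested. Within cells of 5000 to 20000 UMIs the counts of members called higher were again 5 and 6, and the share of all genes called was not counted there.

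Glucagon-led cells showed another pattern when binned in the same way by the glucagon share. In bin 5 against bin 1, 4 members were called higher in the control library (3.71% of genes were) and 3 in the library labelled knockout (3.19%). Resp18 went from 991 to 2274 hormone-free CPM in the control library, a log2 ratio of 1.20, and Scg5 from 754 to 1692 (1.17), with 1.03 and 0.91 in the library labelled knockout. Vgf had 0.61 and 0.64, in the library labelled knockout on only 66 UMIs in bin 1 and 47 in bin 5. Its control level was highest in bin 3, at 75.9, and stood at 65.7 in bin 5. Chga had 0.91 in the control library and, not called, 0.46 in the other. Chgb had −0.02 and −0.38 and Scg2 −0.42 and −0.41, all short of the fold, so the members called higher with glucagon share included Vgf, whose ratio with insulin share was −0.53 and 0.05. No member was called lower, against 31.1% and 17.8% of genes. From bin 1 to bin 5 the median mitochondrial share went from 3.999% to 1.68% in the control library and from 2.33% to 1.13% in the other, and median UMIs from 8469 to 6682 and from 7217.5 to 4879. Their part in these ratios was not tested.

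Between the libraries, granin RNA in insulin-led cells was 2.04-fold higher in the one labelled knockout, and 3 members carried it. Levels for this comparison are CPM with TMM scaling. Chgb stood at 639 in control and 3074 in knockout-labelled cells, 4.81-fold, with a log2 ratio of 2.27 (2.25 to 2.28). Chga stood at 2045 and 4859, 2.38-fold (1.25, 1.24 to 1.26), and Resp18 at 253 and 644, 2.54-fold (1.35, 1.32 to 1.38). These 3 of 7 were called higher, as were 6.46% of the 8394 genes at 10 CPM or more.

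None of the other members was called higher. Scg2 stood at 1181 and 1285 (log2 ratio 0.12, 0.11 to 0.14), Scg3 at 707 and 717 (0.02, −0.00 to 0.04) and Scg5 at 617 and 606 (−0.02, −0.05 to −0.00). Vgf stood at 38.1 and 20.0, 1.91-fold lower (−0.93, −1.03 to −0.83), the 1 member called lower, against 3.38% of genes. The median log2 ratio was 0.12 over the members and −0.06 over all genes. The share of granin UMIs taken by Chgb went from 11.7% to 27.4%, and that of Scg2 from 21.5% to 11.5%.

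Other classes of the library labelled knockout showed the chromogranin difference at a smaller size. In glucagon-led cells Chgb stood at 444 and 793 CPM (0.84, 0.79 to 0.88) and Chga at 1221 and 1926 (0.66, 0.63 to 0.69), and these 2 of 7 were called higher, against 0.745% of genes, with 0 lower, against 0.733%. Resp18, at 1393 and 1662, had 0.25, Scg3 0.23, Scg5 0.11, Scg2 −0.11 and Vgf −0.54. With a leading hormone at least 10 times the next, Chgb had 0.51 in glucagon-led cells and was no longer called. The insulin share of the median glucagon-led cell was 0.285% in control and 1.00% in knockout-labelled cells, and Ins1 and Ins2 had log2 ratios of 2.45 and 1.08 there. On the hormone-free scale Chgb stood at 20.1 and 91.7 in non-endocrine cells without a leading hormone and at 502 and 888 in glucagon-led cells. Over all cells with non-endocrine markers Chgb stood at 24.2 and 204. In the library labelled knockout Ins2 stood at 3548 in non-endocrine cells without a leading hormone and at 9295 in glucagon-led cells. The part of insulin-cell RNA in the glucagon-led ratios was not tested.

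In Ppy-led cells Chgb had a log2 ratio of 0.99 (0.90 to 1.09) and Chga 0.61 (0.53 to 0.69), the 2 members called higher against 2.20% of genes. Vgf was called lower there on 46 and 6 UMIs, against 2.75% of genes, and Resp18 had 0.02. In somatostatin-gated cells Chgb had 1.27 (1.09 to 1.45), Resp18 1.17 (0.86 to 1.48) and Chga 0.70 (0.47 to 0.93), the 3 called higher against 2.36% of genes, with 0 lower against 3.01%. Chgb therefore had the largest ratio of the 7 in insulin-led, glucagon-led, Ppy-led and somatostatin-gated cells alike. Whether the ratios differ between classes was not tested.

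**Figure D4:**
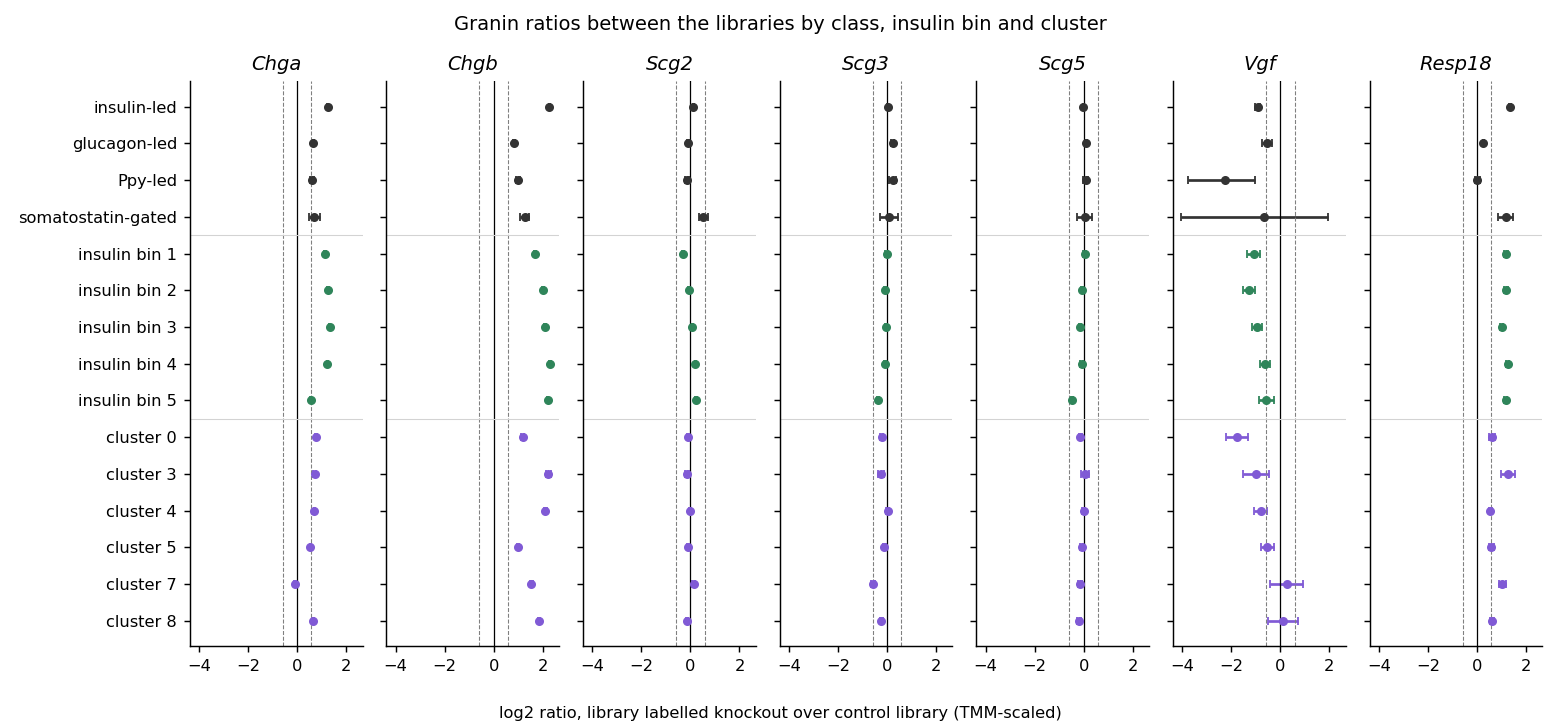
Log2 ratio of each granin between the library labelled knockout and the control library (TMM-scaled, exact 95% intervals) in 4 hormone classes (black), in the 5 insulin bins (green) and in the 6 clusters with at least 100 insulin-led cells of both libraries (purple); the dashed lines mark 1.5-fold. Chgb lies right of the line throughout, and Scg2, Scg3 and Scg5 lie between the lines in all 15 rows.

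Chgb and Resp18 were higher at every insulin share. Within the 5 insulin bins, in order, the log2 ratio of Chgb was 1.67, 1.999, 2.09, 2.31 and 2.19 and that of Resp18 1.18, 1.17, 1.00, 1.26 and 1.17. Chga had 1.15, 1.25, 1.33 and 1.23 in bins 1 to 4 but 0.56 (not called) in bin 5, where both libraries had their highest levels. The genes called higher over these bins were 3.39%, 5.06%, 7.34%, 10.5% and 14.6%. Vgf had −1.09, −1.28, −0.94, −0.63 and −0.57, called lower in bins 1 to 4, while 2.50%, 3.14%, 3.78%, 5.75% and 11.1% of genes were lower over the 5 bins. Scg3 and Scg5 had −0.36 and −0.47 in bin 5 and lay between −0.16 and 0.05 in the others.

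Clusters gave smaller ratios for the 3 members called higher. The library labelled knockout placed 31.3% of its insulin-led cells in clusters that control cells hardly entered, so only 6 clusters could be compared, and these were made from the same expression values. Within them Chgb had between 0.99 and 2.23, Resp18 between 0.55 and 1.26 and Chga between 0.54 and 0.76 in 5 clusters. In cluster 7 Chga had −0.07 (−0.11 to −0.04), at 6734 and 6695 hormone-free CPM. That cluster held 648 and 704 insulin-led cells with medians of 1451.5 and 1280 detected genes and of 33.8% and 18.0% insulin. Vgf had −0.53 to −1.75 in 4 clusters and 0.26 (−0.40 to 0.93) and 0.10 (−0.49 to 0.73) in clusters 7 and 8. In the 2 clusters nearly confined to the library labelled knockout, 1 and 12, Chgb stood at 2930 and 4648 and Chga at 3906 and 4657. Cluster 8 held 165 control (4.26%) and 1402 knockout-labelled (19.9%) insulin-led cells, with Chga at 7275 and 11650. Its median mitochondrial shares were 6.05% and 4.93%. It held 179248 of the 339958 Chga UMIs of knockout-labelled insulin-led cells. The part of cluster makeup in the Chga ratio was not tested.

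Stress and quality genes, beta-cell markers and markers of other cells also moved with the libraries in insulin-led cells. Of 10 beta-cell markers 6 were called higher and 0 lower, with a median log2 ratio of 0.66, where 6.46% of all genes were called higher. Among them Ins1 had 1.64 and Ins2 0.07. Of 11 genes of the stress and quality list 8 were called lower and 2 higher, and the share of the heat shock genes Hspa1a, Hspa1b and Dnajb1 was 0.0199% in control and 0.00776% in knockout-labelled cells. Median mitochondrial shares were 1.37% and 1.79%. When cells were split into 3 bins by heat shock share, by mitochondrial share or by UMIs per cell, Chgb had between 1.98 and 2.36, Chga between 0.64 and 1.59, Resp18 between 1.09 and 1.62 and Vgf between −0.59 and −1.02. The same 3 members were called higher in all 9 of these bins, where the share of all genes called was not counted. The leukocyte markers summed to 36.2 and 121 CPM, with 1 of 11 at 0 in the control and 0 in the other, the duct markers to 467 and 776 and the pancreatic polypeptide cell markers to 1078 and 1734. Without cells holding UMIs of 2 or more non-endocrine lists, Chgb had 2.29, Chga 1.26, Resp18 1.39 and Vgf −0.93. The part of the beta-cell, duct and pancreatic polypeptide cell markers was not tested.

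The other genes of the granule were less uniform than the chromogranins. The counts that follow stand beside 6.46% of all genes called higher and 3.38% lower in insulin-led cells. Of 10 measured genes of prohormone processing 2 were called higher in insulin-led cells of the library labelled knockout and 0 lower, with a median log2 ratio of −0.00. The convertase gene Pcsk1 stood at 84.6 and 152 CPM (0.84) and the oxidase gene Ero1lb at 157 and 268 (0.77), while the amidating enzyme gene Pam had 0.45 and the carboxypeptidase gene Cpe −0.42, from 1866 to 1398. Of 18 granule membrane and associated genes 7 were called higher and 0 lower, with a median of 0.32. Among them were the small GTPase genes Rab3d at 0.96 and Rab37 at 0.90, the Rab effector gene Sytl4 at 0.76 and the phosphatase-like gene Ptprn2 at 0.74. Of 13 genes of docking and exocytosis 4 were called higher and 1 lower, with Rph3al at 1.44, Cplx2 at 1.03, Cadps at 0.82 and Syt13 at 0.69. Of 5 genes often grouped with the granins 1 was called higher, Nucb2, the precursor of nesfatin, at 103 and 200 CPM (0.96), and Pcsk1n, an inhibitor of the Pcsk1 convertase, had −0.12. Pcsk1n and Scg5 also stand in the processing list.

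Among other granule cargo 3 of 9 measured genes were called higher and 1 lower. Gpx3 had a log2 ratio of 2.05, Pyy 1.29, Iapp, which encodes amylin, 0.71 and Spock1 −0.67. Of 22 neuroendocrine transcription factors 10 were called higher and 0 lower, with a median of 0.52, led by the immediate early genes Fosb at 2.08, Fos at 2.01 and Egr1 at 1.90. Fos and Egr1 also stand in the stress and quality list, where they are the 2 genes called higher. In glucagon-led cells, where 0.745% of all genes were called higher, 0 of 10 processing, 1 of 17 granule membrane, 0 of 14 docking, 0 of 7 other cargo and 0 of 23 transcription factor genes were called higher, while 1 of 5 granin-related genes was, Nucb2 at 0.82.

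With insulin share the processing genes resembled the granins in part. Of all genes 6.74% were called higher and 22.6% lower in bin 5 than in bin 1 of the control library, and 9.05% and 9.58% in the other, with medians of −0.21 and −0.07. Of 11 processing genes measured, 5 were called higher and 2 lower in bin 5 than in bin 1 of the control library, and 6 and 0 in the library labelled knockout, with medians of 0.38 and 0.97. Of 18 granule membrane genes 2 were called higher among control and 9 among knockout-labelled cells, with medians of −0.04 and 0.55. Other granule cargo, a list that holds hormone genes, had 8 of 10 and 7 of 11 higher and 0 and 2 lower. Its medians were 1.26 and 1.31. Beta-cell markers, which include Ins1 and Ins2, had 8 and 10 of 10 higher and 0 lower, with medians of 1.21 and 2.52. Of 14 docking genes 2 and 6 were higher and 1 lower in each library. The rise with insulin share was thus not particular to the granins.

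The genes whose pattern was most like each member were found over 16 groups of cells, the 5 insulin bins and the glucagon-led, Ppy-led and somatostatin-led cells of each library, by Pearson's r of log2(hormone-free CPM + 1) among 6106 genes. For Chgb these were Selenom (0.96), Smim22 (0.95) and Ptprn (0.95), which encodes a granule membrane protein. For Chga they were C2cd4b (0.89), Fmo1 (0.89) and Lias (0.89), and for Resp18 they were Cst3 (0.96), 5330417C22Rik (0.95) and Cltrn (0.95). For Scg5 they were Aplp1 (0.91), Pcsk1n (0.89) and Pnrc1 (0.83), for Scg2 Dio1 (0.91), Asb13 (0.89) and Phyh (0.89), for Scg3 Mapre3 (0.91), Hist1h2bc (0.89) and Iqcb1 (0.88) and for Vgf Ptp4a2 (0.95), Tgoln1 (0.94) and Cep170b (0.94). Within the family r was highest between Chga and Scg3, at 0.80, and between Chga and Chgb, at 0.75, and lowest between Chgb and Vgf, at −0.61. The groups of a library share its depth and free RNA, and the somatostatin-led groups held 7 and 8 cells.

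Across single insulin-led cells at 3000 UMIs, Chga and Chgb went together more than other pairs, with Spearman's rho of 0.36 over 3023 control and 0.40 over 5039 knockout-labelled cells. In glucagon-led cells the same rho was 0.11 over 1644 and 0.10 over 966 cells. In insulin-led cells Chga and Scg3 had 0.26 and 0.23, and the next pair, Chgb and Resp18, had 0.22 in knockout-labelled cells. With the insulin share of the cell Chga had 0.45 and 0.37, Scg3 0.25 and 0.20, Scg5 0.23 and 0.15, Chgb 0.09 and 0.27, Resp18 0.05 and 0.19, Vgf −0.09 and −0.03 and Scg2 −0.14 and 0.10. UMIs drawn from the whole cell include insulin RNA. Per UMI not of hormone genes, without thinning, Chga had 0.60 and 0.57, Scg5 0.59 and 0.44 and Scg3 0.57 and 0.52. On that scale Chgb had 0.30 and 0.47, Resp18 0.16 and 0.42, Scg2 0.10 and 0.41 and Vgf −0.16 and −0.02. With the mitochondrial share Chga had 0.10 and 0.37. Cells of a library share its preparation and free RNA, so these values describe the libraries.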

How the data were processed

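Per the file headers, Cell Ranger 6.0.0 wrote the 2 deposited tables, which hold the authors' raw UMI counts per gene and barcode. The submitters' processing notes also name mm10, R 4.1.1 and Seurat 4.1.0, and the labels' protocols name a 10x 3′ v3.1 kit. Barcodes under 500 genes or over 15% mitochondrial UMIs were dropped, and the rest were classed by leading hormone. Doublets were not removed, and the top 5% of cells by UMIs were left out in an alternative. UMIs were summed per class and library, and TMM scaling was used between libraries. Ratios carry exact conditional 95% intervals, and a call needs 1.5-fold and an interval that excludes no difference, among genes at a mean of 10 CPM or more. Groups came from the labels, with 1 library each, so no test was made. Intervals cover counting error only, since cells of 1 library are not replicates.

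For shares of cells, 3000 UMIs were drawn per cell. Clusters came from 2000 variable genes, 30 components, 15 neighbours and the Leiden method, and are used by number. All 7 members are described, with up to 4 genes of each list by the size of the ratio between libraries in insulin-led cells, and the 3 genes most like each member. A gene that the rule names is not reported here. The members and lists were chosen with earlier results of these data known. The somatostatin gate, the glucagon bins, the bins by quality and the range of UMIs per cell were chosen after seeing the data. Gene positions are on mm10, and promoter sequences are from RefSeq. Python 3.11.15, numpy 2.4.6, scipy 1.17.1, pandas 2.3.3, scanpy 1.11.5, igraph 0.11.9, scikit-learn 1.9.0 and matplotlib 3.10.9 were used, and the ratios and calls were tested on simulated data.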

Additional observations from a re-analysis of the deposited data

Results flagged for a closer look

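With TMM scaling, a pair of granins differed between the libraries in opposite directions in the 2 main cell classes, with intervals that exclude no difference on both sides. Scg2 had a log2 ratio of the library labelled knockout over the control library of 0.12 in insulin-led and −0.11 in glucagon-led cells. Scg5 had −0.025 in insulin-led and 0.11 in glucagon-led cells. The direction of Scg5 in insulin-led cells depended on the processing, from −0.16 to 0.02 over 9 settings on the whole class. On the hormone-free scale it stood at 738 in control and 751 in knockout-labelled insulin-led cells. The median of all genes there was −0.06 with TMM scaling. All 4 ratios are under 1.5-fold, each rests on 1 library per genotype, and the difference between the classes was not tested.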

How the results depend on the processing

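The count of granins higher in insulin-led cells of the library labelled knockout was 3 under every alternative on the whole class, and 2 or 3 within insulin bins and clusters. With a leading hormone at least 10 times the next, 1 granin in place of 2 was called higher in glucagon-led cells. Between the libraries, the share of all genes called was counted only for whole classes at the main settings and within insulin bins. With CPM over all UMIs, 3 in place of 6 were called higher in bin 5 than in bin 1 of insulin share in the library labelled knockout, by construction a scale on which hormone RNA lowers every other gene. Reversed ratios were those of Chga, −0.074 in cluster 7, and of Vgf, 0.26 in cluster 7 and 0.10 in cluster 8. The cause was not tested. Among the other values for single granins, 218 moved by less than their counting interval and 297 by more, without a change of direction for a called ratio. Scaling moved the median of all genes between libraries in insulin-led cells only from −0.06 to −0.08 or −0.01. No paired analysis was possible because each genotype has 1 library, and for the same reason no replicate could be left out. The number of UMIs per cell limits what can be said of Vgf in Ppy-led and somatostatin-gated cells.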
